A study of Mus musculus with 2 samples.

Results

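The respiratory chain of the inner mitochondrial membrane passes electrons from complex I through complexes III and IV to oxygen, and complex V, the ATP synthase, uses the resulting proton gradient to make ATP. Most subunits are encoded in the nucleus, and a small core set is encoded in mitochondrial DNA. Several complex IV subunits exist as pairs of nuclear genes, 1 expressed broadly and 1 known from heart and skeletal muscle, testis, or vessel-associated cells. Alveolar type 2 (AT2) cells, which make surfactant, are rich in mitochondria.

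The genes described here are the nuclear genes of complexes I, III, IV and V, chosen by symbol: names starting with Nduf, Uqcr or Atp5, or with Cox followed by 4 to 8 and a letter, with at least 20 unique molecular identifiers (UMIs, 1 per captured transcript) over all barcodes of at least 2000 UMIs. Of 28692 genes in the files, 88 carried such a name and 86 reached the minimum. Cox7b2, with 0 UMIs, and Cox8c, with 2, did not; both are isoforms known from testis. The 86 genes comprised 36 of complex I, 7 complex I assembly factors (Ndufaf) and 8 of complex III. There were 18 of complex IV, with Ndufa4 and Ndufa4l2 counted there. The 17 of complex V were counted by the Atp5 name and not by function, Atp5sl included.

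Single-cell RNA was read in droplets from the lungs of 2 mice, 1 per group, both wild-type C57BL/6. The tumor-bearing mouse carried a tumor grown from 1000000 subcutaneous LLC cells (a mouse lung carcinoma line, here carrying luciferase) placed on its back 14 days before its lungs were collected; the control mouse was untreated. Only CD45-negative, SftpC-positive cells from a flow sort, with a stated purity above 95%, were sequenced in both groups, so shares of cells are set by that sort. The libraries held 84448360 and 91498124 UMIs, tumor-bearing first, the order kept throughout. A group is 1 library, so differences between groups have no replicate check and no p-value is given. The 95% intervals are exact and cover counting error only.

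Classes were rebuilt from marker genes by clustering in which the 86 genes took no part. AT2 cells, defined by Sftpc at 15% or more of their UMIs, numbered 6147 and 8891. Alveolar type 1 (AT1) cells numbered 179 and 336, club cells 252 and 70, ciliated cells 216 and 283, and endothelial cells 441 and 52. These were the cells of clusters so named that had Sftpc under 15%. The rest of the AT1 cluster, which held 262 and 501 cells in all, was in no class. In every class all 10 of its own markers reached 20 CPM (counts per 1000000 UMIs) in both libraries. That alone does not set classes apart, since clusters were named from these lists. All 10 AT2 markers also reached it in AT1 cells, and 9 and 10 of them in club, ciliated and endothelial cells. In AT1 cells the AT2 markers summed to 47983 and 60831 CPM and the AT1 markers to 47971 and 45900. The AT1 markers summed to 2596 and 2438 CPM in AT2 cells. Sftpc UMIs were present in every class and made up between 1.42% and 4.51% of UMIs outside AT2, and 18.8% and 23.3% in empty droplets. Of the cells, 116 barcodes occurred in both libraries (1.52% of the tumor-bearing cells). Each class comparison is therefore given with the empty-droplet value or with the ratio to Sftpc where it bears on the result.

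Classes differed in the isoform pairs of complex IV. The share of a pair taken by 1 of its genes does not depend on how a class is scaled, but UMIs were not divided by gene length, so shares were read between classes and not between genes. Cox6a2, known as the heart and skeletal muscle isoform of subunit 6a, took 38.4% (95% interval 37.9 to 38.9) and 40.9% (40.5 to 41.4) of the Cox6a1 and Cox6a2 UMIs in AT2 cells. Its share was 5.57% and 9.69% in AT1 cells. The share was larger in the whole AT1 cluster, without the Sftpc limit, at 310 and 519 Cox6a2 UMIs beside 1682 and 2572 of Cox6a1. The Cox6a2 share was 8.38% and 13.1% in club cells and 2.16% and 2.60% in ciliated cells. In endothelial cells it was 2.32% in the tumor-bearing library and 0 of 114 UMIs in the control library, which allows a share of up to 2.63% if 3 counts are taken as the limit. Each of these 4 classes lay below AT2 in both libraries, and no interval reached the AT2 value. That does not hold for every cluster outside the classes. A cluster named neuroendocrine, of 20 and 6 cells with 5.56% Sftpc, had 29 Cox6a2 UMIs beside 77 of Cox6a1 in the tumor-bearing library. Its Cox6a2 level of 207 (138 to 297) CPM has an interval that holds the AT2 level of 254 CPM.

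In levels, Cox6a2 (ENSMUSG00000030785, mm10 chr7:128205435-128206387, minus strand) stood at 254 and 291 CPM in AT2 cells, from 14231 and 18188 UMIs. It stood at 46.6 and 89.8 CPM in AT1 cells, 17.7 and 35.2 in club cells and 15.5 and 19.3 in ciliated cells. The AT1 level depended on the Sftpc limit of 15%: the whole AT1 cluster had 125 (111 to 139) and 142 (130 to 154) CPM. Endothelial cells had 16.8 CPM in the tumor-bearing library; in the control library 0 UMIs were counted, which places the level at least 14.4-fold lower than in AT2 cells, taking 3 counts as the limit. Cox6a1, the broadly expressed partner, was at 408 and 420 CPM in AT2 cells and at 790 and 837 CPM in AT1 cells. After each cell was thinned to 2000 UMIs, a Cox6a2 UMI was found in 35.4% and 39.9% of AT2 cells, against 1.85% and 3.89% of ciliated cells and 6.15% and 15.8% of AT1 cells. Without thinning the shares were 75.4% and 73.4% in AT2 cells, at medians of 8833 and 6824 UMIs, and 6.94% and 7.07% in ciliated cells, at medians of 5109 and 4344.

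The Cox6a2 found outside AT2 was set against Sftpc, the AT2-defining surfactant protein gene. AT2 cells held 0.958 (0.942 to 0.974) and 1.10 (1.09 to 1.12) Cox6a2 UMIs per 1000 Sftpc UMIs. Club cells held 0.974 (0.791 to 1.19) and 1.21 (0.836 to 1.71), and ciliated cells 1.07 (0.634 to 1.69) and 0.826 (0.534 to 1.22). The intervals of both classes hold the AT2 ratio of their library. The part of AT2 RNA in the Cox6a2 of these classes was not tested. AT1 cells lay above the AT2 ratio, at 1.32 (1.01 to 1.69) and 1.99 (1.73 to 2.28). Sftpc, the divisor here, also set the classes, with AT1 cells kept under its limit and AT2 cells at or above it. That choice by itself raises the AT1 ratio against AT2. The ratio was not taken for the whole AT1 cluster, so nothing about AT1 cells was read from it. Empty droplets lay below the AT2 ratio, at 0.775 (0.721 to 0.831) and 0.969 (0.888 to 1.06).

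**Figure D1:**
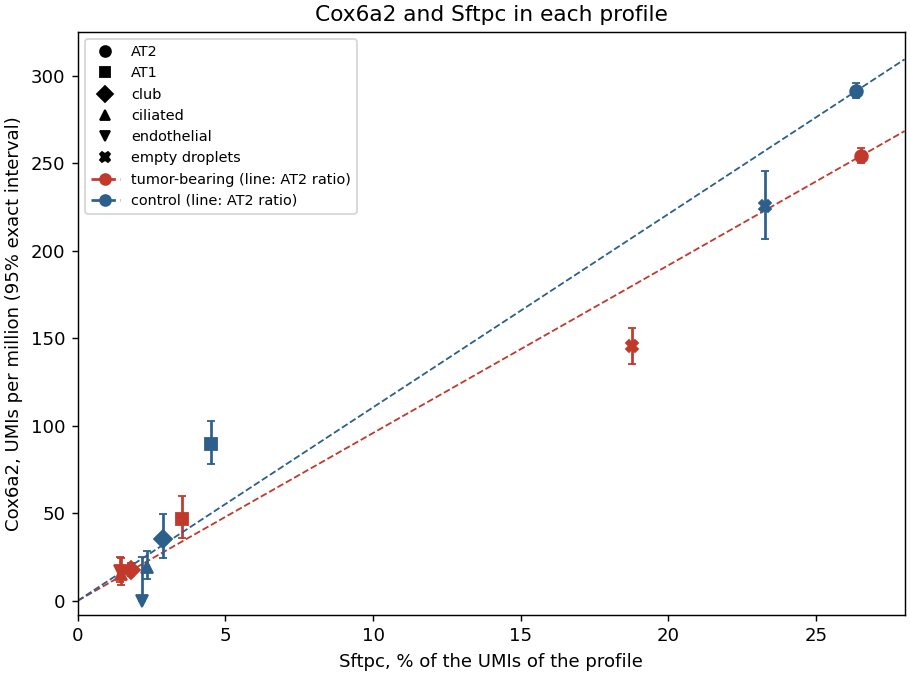
Cox6a2 in CPM (vertical axis) against Sftpc as a percentage of UMIs (horizontal axis) for each class and for empty droplets, by library; bars are 95% exact intervals and each dashed line is the AT2 ratio of that library. Club, ciliated and endothelial cells sit near the lines below 3% Sftpc, and AT1 cells sit above them.

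The gene overlaps Itgad on the opposite strand, and the strand setting of the counting is not given in the sources used here; Itgad itself had 0 UMIs in all 5 classes of both libraries. Genes of heart muscle, listed after Cox6a2 had been seen, were mostly near 0 in AT2 cells: Myl7, Myl2 and Mb had 0 UMIs there, Actc1 had 5 and 10, Tnnt2 8 and 4, Nppa 2 and 2, Tnni3 10 and 16, Acta1 4 and 4, and Ckm 12 and 26. The exceptions were the myosin heavy chain genes Myh7, at 129 and 135 CPM, and Myh6, at 5.57 and 6.61 CPM. Cox8b, the muscle isoform of subunit 8, had 14 and 4 UMIs in AT2 cells and at most 2 in any other class, and Cox7b2 had 0 throughout. Their partners Cox8a and Cox7b were at 734 and 811 and at 236 and 241 CPM in AT2 cells.

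Among the 4 clusters named AT2, Cox6a2 varied by less than it did between classes. It was highest in both libraries in the cluster led by Areg, Ctsh, Slpi and the class II antigen presentation genes H2-Aa, Cd74 and H2-Eb1, at 291 (279 to 303) and 345 (336 to 355) CPM. The other 3 AT2 clusters ranged from 241 to 259 and from 266 to 287 CPM. Cox6a2, left out of the clustering, stood among the 10 leading genes of that cluster. Leading genes were ranked against the mean of all other clusters, other cell types included. The rank therefore does not set the cluster apart from the other AT2 clusters. Cox6a1 was also highest there among the AT2 clusters, at 449 and 453 CPM.

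**Figure D2:**
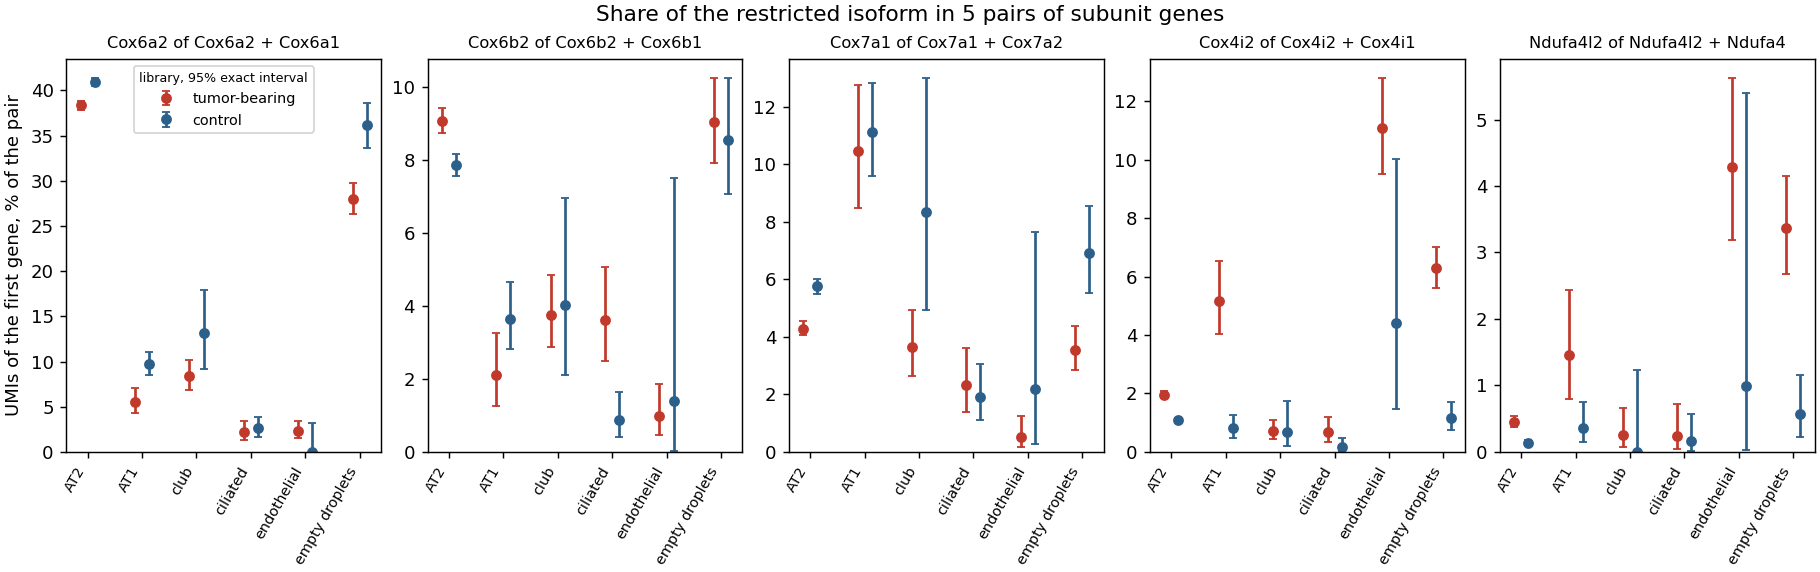
Share of UMIs (percent, vertical axis, a different scale in each panel) taken by the first-named gene in 5 pairs, for the 5 classes and empty droplets in the tumor-bearing (red) and control (blue) libraries, with 95% exact intervals. Cox6a2 and Cox6b2 are highest in AT2 cells and empty droplets, Cox7a1 in AT1 cells in both libraries, and Cox4i2 and Ndufa4l2 in endothelial cells. Intervals are 2-sided, so that of the control endothelial Cox6a2 share reaches 3.18%.

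Cox6b2, known as the testis isoform of subunit 6b, took 9.08% and 7.86% of its pair with Cox6b1 in AT2 cells, at 45.3 and 40.3 CPM. Outside AT2 its share ranged from 0.869% to 4.04%, and each of those values rests on between 1 and 62 UMIs. In AT1 and club cells it exceeded the AT2 ratio to Sftpc, with separate intervals. AT2 cells held 0.171 and 0.153 Cox6b2 UMIs per 1000 Sftpc UMIs, AT1 cells 0.398 and 0.594, and club cells 0.566 and 0.441. Every class but AT2 was kept under the Sftpc limit, which by itself raises this ratio against AT2. The part of that choice in the difference was not tested. Ciliated cells differed between libraries, at 1.902 (1.301 to 2.68) and 0.297 (0.136 to 0.564), and empty droplets, at 0.213 and 0.2001, also lay above AT2. Its highest level was in an unnamed cluster of 44 and 21 cells led by cell division genes (Top2a, Birc5, Cdk1) with 18.4% Sftpc, at 243 (205 to 287) and 131 (88.7 to 185) CPM. That cluster's intervals lie above those of all 4 AT2 clusters, which ranged from 27.8 to 55.9 CPM.

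Cox7a1, the muscle isoform of subunit 7a, took its highest share in AT1 cells in both libraries. It took 10.5% (8.47 to 12.8) and 11.1% (9.60 to 12.8) of its pair with Cox7a2 in AT1 cells, against 4.29% and 5.75% in AT2 cells, 2.31% and 1.91% in ciliated cells and 0.532% and 2.17% in endothelial cells. The club value differed between libraries, at 3.66% from 40 UMIs and 8.33% from 17. In AT1 cells it stood at 64.3 (51.5 to 79.3) and 73.8 (63.2 to 85.7) CPM, against 20.5 and 28.9 CPM in AT2 cells and 16.05 and 34.5 CPM in empty droplets. AT1 cells held 1.82 and 1.64 Cox7a1 UMIs per 1000 Sftpc UMIs and AT2 cells 0.0773 and 0.110. The Sftpc limit that set both classes by itself raises the AT1 ratio against AT2, by an amount that was not tested.

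Cox4i2, the isoform of subunit 4 known from lung and from smooth muscle of its vessels, and Ndufa4l2, a hypoxia-induced paralog of the complex IV subunit Ndufa4, were highest in vessel-associated cells. Cox4i2 took 11.1% (9.52 to 12.8) and 4.42% (1.45 to 10.0) of its pair with Cox4i1 in endothelial cells, the second from 5 UMIs, and 1.95% and 1.08% in AT2 cells. In empty droplets it took 6.29% and 1.17%, above the AT2 value in the tumor-bearing library. Ndufa4l2 took 4.29% and 0.990% of its pair with Ndufa4 in endothelial cells, the second from 1 UMI, 0.451% and 0.135% in AT2 cells and 3.36% and 0.565% in empty droplets. Both were far higher in an unnamed cluster of 63 and 24 cells that carried pericyte and smooth muscle markers beside 16.9% Sftpc. The AT2 class, set by Sftpc, takes in droplets of such unnamed clusters: the 4 clusters named AT2 held 67 and 17 Ndufa4l2 UMIs, against 137 and 47 in the class, and 647 and 462 Cox4i2 UMIs, against 926 and 579. In the unnamed cluster Cox4i2 stood at 2002 and 943 CPM and Ndufa4l2 at 595 and 306 CPM, and both were among the cluster's 10 leading genes.

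The 8 pericyte and smooth muscle markers, summed, stood at 702 and 581 CPM in that cluster and at 26.2 and 27.0 CPM in endothelial cells, where Cox4i2 was at 109 and 33.7 CPM. Of the 8 markers, 1 and 6 were at 0 in endothelial cells. The part of pericyte RNA in the endothelial Cox4i2 level was not tested. Ndufa4l2 overlaps Shmt2 on the opposite strand, which stood at 12.8 and 13.5 CPM in endothelial cells; Cox4i2, Cox6b2 and Cox7a1 overlap no annotated gene.

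The upstream sequences of these pairs were read from RefSeq (GRCm38.p6, the build called mm10), which gave a promoter for 69 of the 86 genes; Cox6a2, Cox4i1, Cox4i2 and Ndufa4l2 were not among them. Motifs known from promoters of respiratory genes, and the TATA sequence, were searched on both strands in the 250 bases before and 50 after each start. The NRF1 letters, GCGC and TGCGC with any 1 base between them, were present in 16 of the 69 (23.2%), against 4.78% of all 27025 promoters. The GABPA letters CCGGAAG were present in 14 (20.3%), against 9.12%, and the YY1 letters AAGATGG in 9 (13.04%), against 6.48%. CCAAT was present in 29 (42.0%), against 37.9%, and TATAAA in 6 (8.70%), against 14.2%. A match is a run of letters and not a bound site.

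The 250 bases before the start are shown, 5′ to 3′, for the Cox6b and Cox7a pairs, of which both genes had an entry, and for Cox6a1, the partner of Cox6a2. Capitals mark every match: CCGGAAG (read as CTTCCGG on the other strand), CCAAT (as ATTGG) and the NRF1 letters, read on either strand.
Cox6a1 (chr5:115348959-115349208, strand -): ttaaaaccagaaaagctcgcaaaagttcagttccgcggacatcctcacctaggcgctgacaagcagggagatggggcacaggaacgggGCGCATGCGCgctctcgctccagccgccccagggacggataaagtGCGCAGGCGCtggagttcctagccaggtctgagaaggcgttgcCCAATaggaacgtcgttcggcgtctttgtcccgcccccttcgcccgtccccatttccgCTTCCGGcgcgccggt
Cox6b1 (chr7:30626115-30626364, strand -): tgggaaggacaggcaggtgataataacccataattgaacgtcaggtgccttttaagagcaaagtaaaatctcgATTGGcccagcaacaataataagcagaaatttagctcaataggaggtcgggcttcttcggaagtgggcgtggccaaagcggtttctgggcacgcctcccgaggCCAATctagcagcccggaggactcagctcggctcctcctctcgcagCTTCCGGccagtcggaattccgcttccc
Cox6b2 (chr7:4753095-4753344, strand -): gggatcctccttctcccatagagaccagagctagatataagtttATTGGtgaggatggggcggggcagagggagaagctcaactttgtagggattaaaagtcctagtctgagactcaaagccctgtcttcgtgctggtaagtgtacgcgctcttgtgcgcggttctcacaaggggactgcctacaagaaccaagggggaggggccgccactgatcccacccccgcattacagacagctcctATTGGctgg
Cox7a2 (chr9:79759854-79760103, strand -): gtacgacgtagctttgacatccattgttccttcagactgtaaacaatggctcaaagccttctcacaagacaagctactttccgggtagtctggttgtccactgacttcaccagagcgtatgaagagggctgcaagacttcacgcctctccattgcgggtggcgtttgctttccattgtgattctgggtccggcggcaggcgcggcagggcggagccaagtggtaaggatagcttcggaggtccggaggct
Cox7a1 (chr7:30183921-30184170, strand +): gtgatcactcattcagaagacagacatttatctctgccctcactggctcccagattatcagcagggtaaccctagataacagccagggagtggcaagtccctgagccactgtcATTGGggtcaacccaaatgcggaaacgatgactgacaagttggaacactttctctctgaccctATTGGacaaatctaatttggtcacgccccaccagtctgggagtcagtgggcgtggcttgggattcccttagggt
Of the broadly expressed genes, Cox6a1 and Cox6b1 hold CCGGAAG, starting 16 and 28 bases before the start, and Cox6a1 also holds the NRF1 letters at 117 and 162 bases. Cox7a2 holds none of the motifs searched, and Cox8a, Cox7c, Cox5a, Cox5b and Ndufa4, also broadly expressed, hold no CCGGAAG there either. The upstream stretches of Cox6b2 and Cox7a1 hold CCAAT alone of the motifs searched.

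The summed level of the 86 genes depended on what it was scaled to. They made up 1.92% and 2.02% of UMIs in AT2 cells, 2.37% and 2.64% in AT1, 1.09% and 1.23% in club, 2.99% and 3.03% in ciliated and 2.29% and 2.32% in endothelial cells, and 1.78% and 2.01% in empty droplets. Sftpc alone took 26.5% and 26.4% of AT2 UMIs, and the club secretory gene Scgb1a1 took 59.9% and 54.0% of club UMIs. With Sftp and mitochondrially encoded genes left out of the total, the ratio to AT2, as the geometric mean of the libraries, went from 1.27 to 0.887 in AT1, from 0.588 to 0.404 in club, from 1.53 to 1.06 in ciliated and from 1.17 to 0.795 in endothelial cells. Counted per cell, it was 1.14 in AT1, 1.26 in club, 0.947 in ciliated and 0.454 in endothelial cells. In no class did the direction hold under every scaling. By complex, the ratios to AT2 in CPM stayed close to each other within a class, between 1.14 and 1.39 in AT1 and between 1.43 and 1.59 in ciliated cells, apart from the assembly factors at 1.89 and 1.98 in AT1 and 3.23 and 3.41 in ciliated cells.

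The ratio of the nuclear genes to the 13 respiratory genes of mitochondrial DNA needs no scaling, and it differed between classes in both libraries. It was 0.595 (0.594 to 0.597) and 0.559 (0.558 to 0.560) in AT2 cells and 1.08 (1.06 to 1.10) and 1.07 (1.06 to 1.08) in AT1 cells. Endothelial cells had 0.963 (0.949 to 0.978) and 0.913 (0.872 to 0.956). Ciliated cells, at 0.672 and 0.681, and club cells, at 0.573 and 0.637, lay near AT2, club cells below it in the tumor-bearing and above it in the control library. Empty droplets had 0.282 and 0.301, lower than any class. Mitochondrially encoded UMIs were 3.23% and 3.61% of AT2 UMIs, 2.19% and 2.46% of AT1 UMIs and 4.45% and 4.45% of ciliated UMIs.

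**Figure D3:**
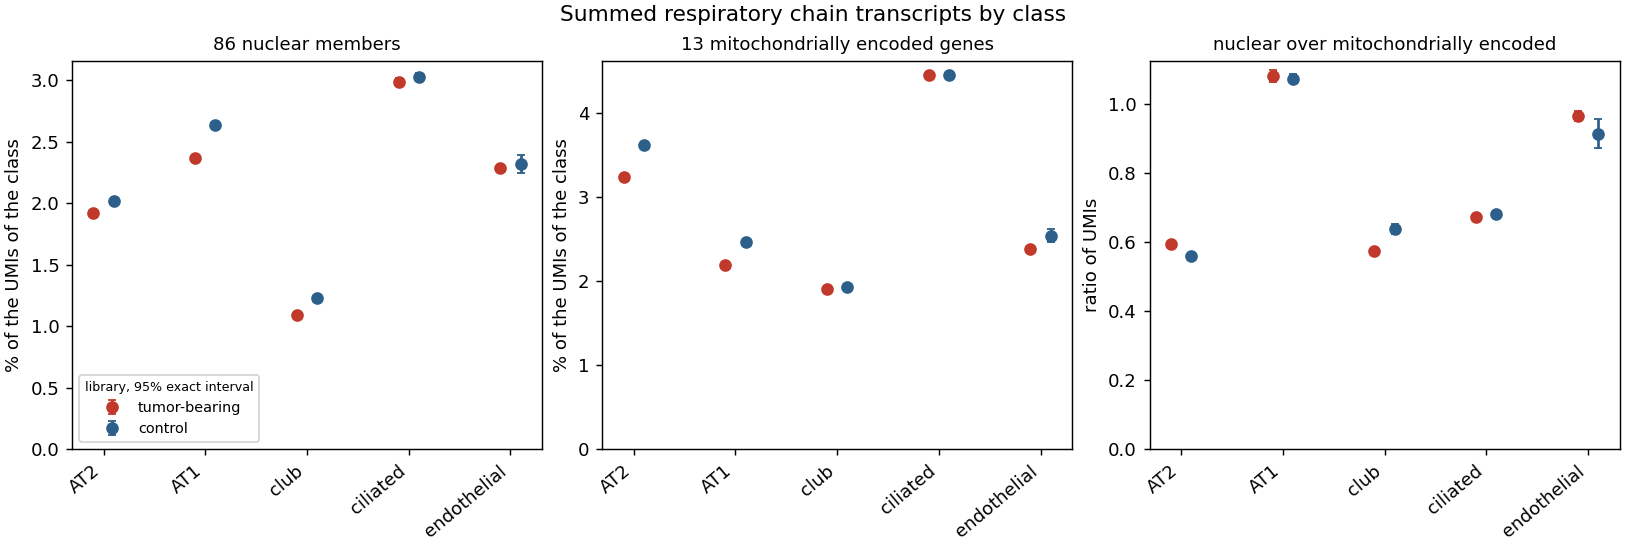
Share of the UMIs of each class (percent) on the 86 nuclear genes and on the 13 mitochondrially encoded genes, and the ratio of the first to the second, in the tumor-bearing (red) and control (blue) libraries, with 95% exact intervals, most of them smaller than the points. The ratio is near 1.08 in AT1 cells and between 0.559 and 0.595 in AT2 cells.

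Single genes were compared with AT2 within each library by a rule of size: at least 20 CPM in either class in both libraries, at least 2-fold apart with separate intervals, in 1 direction in both. The median of all genes tested was itself shifted from AT2, by 0.91 and 0.84 on the log2 scale in AT1, -1.01 and -0.84 in club, 0.98 and 0.89 in ciliated and 1.10 and 1.13 in endothelial cells. The median of the nuclear respiratory genes was shifted less in every class, by 0.42 and 0.49 in AT1, -0.85 and -0.73 in club, 0.64 and 0.58 in ciliated and 0.34 and 0.28 in endothelial cells. In AT1 cells 10 of 79 genes tested were higher and 1 was lower, beside 36.9% and 5.27% of all genes tested. In club cells 0 of 74 were higher and 9 lower, beside 2.89% and 32.7%. In ciliated cells 11 of 78 were higher and 1 lower, beside 42.1% and 7.29%. In endothelial cells 5 of 78 were higher and 2 lower, beside 37% and 5.2%. By this rule and scaling the counts are below the shares of all genes in each class and direction, but not in every setting tried. Club genes lower exceeded the share at 1.5-fold (55 of 74 beside 61.3%) and without Sftp and mitochondrial genes (60 of 74 beside 75.4%). Endothelial genes lower exceeded it per cell (35 of 78 beside 21.1%) and centred on the median of all genes (21 of 78 beside 17%). All 4 comparisons share the AT2 cells of their library. Of 24 gene and class pairs named by the rule, 5 met it under every scaling and cell definition tried that gave a value: Cox6a2 lower in all 4 classes, and Ndufaf3 higher in ciliated cells. Every definition tried kept AT1 cells under a limit of Sftpc. The whole AT1 cluster, with Cox6a2 at 125 and 142 CPM, was not among them.

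Because the level of a class moves every gene together, each gene was also read as a share of the UMIs on the 86 genes, a measure chosen after the levels had been seen. A share at least 1.5-fold above or below that in AT2 cells in both libraries was reached upward by 11 of 79 genes in AT1, 2 of 74 in club, 8 of 78 in ciliated and 7 of 78 in endothelial cells. It was reached downward by 4, 2, 8 and 4 genes. Read on the same scale, 40.2%, 7.2%, 35.1% and 51.4% of all genes tested were that much higher, and 12.6%, 16.9%, 18.1% and 12.6% that much lower. Each share of the respiratory genes lies below that of all genes. This was largely fixed in advance, since the 86 genes set the scale on which they were read. Their median fold was 1.09 in AT1, 0.975 in club, 0.988 in ciliated and 1.08 in endothelial cells. All genes keep the shift of their class on that scale, so nothing about the respiratory genes was read from the comparison.

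**Figure D4:**
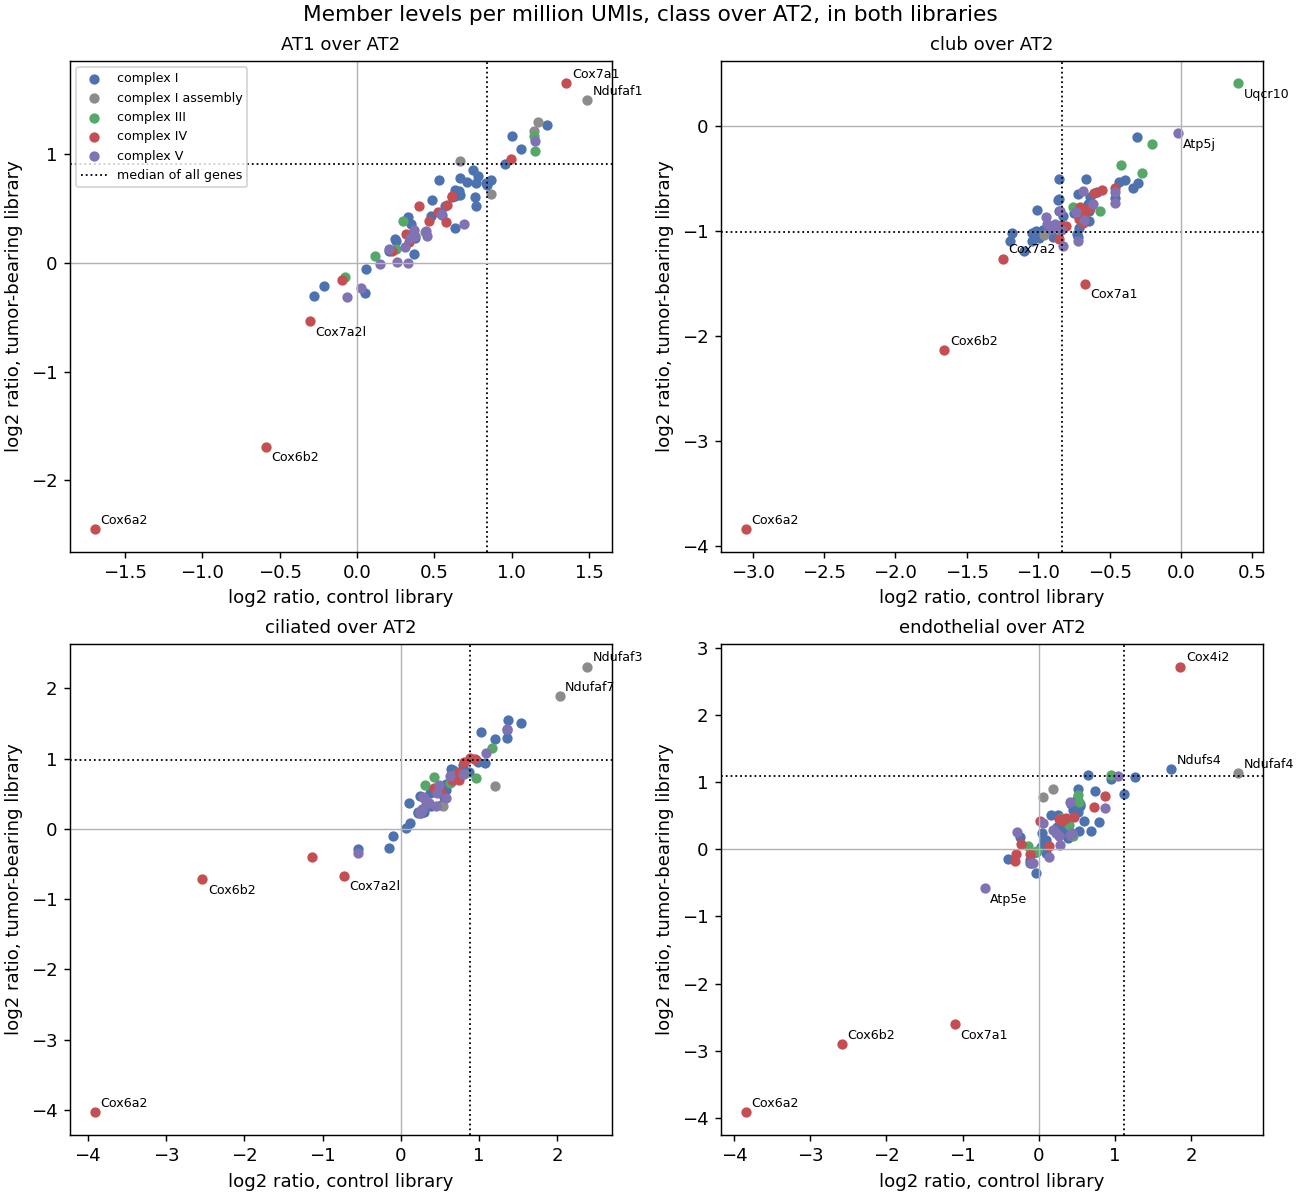
Log2 ratio of CPM, class over AT2, in the control (horizontal axis) and tumor-bearing (vertical axis) libraries, 1 point per gene coloured by complex; dotted lines mark the median of all genes tested and gray lines mark 0. The control endothelial value of Cox6a2, at 0 UMIs, is drawn at the limit of 3 counts. Cox6a2 is lowest in all 4 panels, and Ndufaf3 is highest in ciliated cells.

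By complex, the AT1 genes higher by this rule were 3 of 36 of complex I, 3 of 5 assembly factors tested, 2 of 8 of complex III, 1 of 15 of complex IV and 1 of 15 of complex V. The ciliated ones were 6 of 36, 2 of 4, 1 of 8, 0 of 15 and 2 of 15, and the endothelial ones 2 of 36, 1 of 3, 0 of 8, 1 of 16 and 1 of 15. The club genes lower were 6 of 35 of complex I and 3 of 15 of complex IV. Beside these stand 36.9%, 42.1% and 37% of all genes higher and, in club cells, 32.7% lower. Only the assembly factors in AT1 and ciliated cells, with few genes tested, lie above those shares. That excess cannot be read as a trait of the group. The AT1 genes called, Ndufaf1, Ndufaf4 and Ndufaf7, had mean levels of 8.30, 17.0 and 10.7 CPM in AT2 cells. They met the 20 CPM minimum only through AT1 cells, and Ndufaf7 met it in the ciliated comparison only through ciliated cells. Complex IV held the lowest gene in all 4 classes, Cox6a2. Its mean log2 ratios were -2.07 in AT1, -3.45 in club, -3.98 in ciliated and -3.88 in endothelial cells. The last has the control value at the limit of 3 counts. In complex V the genes for the membrane ring, Atp5g1, Atp5g2 and Atp5g3, which encode the same mature protein, met the rule in no class. They stood at 210.1 and 240.2, 341 and 334, and 160.4 and 177 CPM in AT2 cells, and at 256 and 291, 426 and 458, and 276 and 308 CPM in ciliated cells.

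In ciliated cells, which carry motile cilia, 2 of the 4 assembly factors tested, Ndufaf3 and Ndufaf7, took shares at least 1.5-fold larger than in AT2 cells. So did 5 of the 36 complex I subunits. The other assembly factors tested, Ndufaf2 and Ndufaf4, did not. Of all genes tested, 35.1% were that much higher on this scale, so these counts were not read as a trait of either group. Ndufaf3 (mm10 chr9:108565537-108567434), an early assembly factor of complex I, stood at 211 (185 to 239) and 217 (192 to 244) CPM, against 42.5 and 41.5 CPM in AT2 cells, and its share of the 86 genes was 3.19 and 3.49 times that in AT2 cells. It overlaps Impdh2 on the opposite strand, which stood at 55.04 and 68.0 CPM in ciliated and 41.4 and 40.4 CPM in AT2 cells. Ndufaf7, a methyltransferase of complex I assembly, was at 37.8 and 45.6 CPM against 10.2 and 11.1, a share 2.38 and 2.73 times that in AT2 cells. Ndufab1, the mitochondrial acyl carrier protein, and Ndufa12, an accessory subunit, were at 337 and 369 and at 362 and 364 CPM, against 119 and 127 and 124 and 141 in AT2 cells. Atp5j, coupling factor 6 of the ATP synthase, was at 972 and 947 CPM against 363 and 369; it overlaps Gabpa on the opposite strand, at 14.6 and 13.9 CPM in ciliated cells. Among genes that met the 20 CPM minimum, the others with a share 1.5-fold higher were Ndufs4, Ndufc2 and Ndufs5. Below that minimum, Ndufaf6, Atp5s and Atp5sl also had such shares.

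Ciliated cells also had genes with lower shares. Cox7a2l, counted here with complex IV, was at 220 and 212 CPM against 349 and 351 in AT2 cells. Its share was 0.406 and 0.402 times that in AT2 cells. Ndufa5, an accessory subunit of complex I, was at 103 and 98.9 CPM against 126 and 144, and Atp5d, the delta subunit of the ATP synthase, at 295 and 267 against 375 and 390. Ndufs8, a core subunit of complex I, had a share of 0.531 and 0.5997 times that in AT2 cells. Cox6a2, Cox6b2 and Cox7a1 also had lower shares. Ndufab1 and Atp5d overlap genes on the opposite strand (Gm44986 and Cbarp). Cox7a2l, Ndufa5, Atp5d and Ndufs8 were named after their values were seen. Complex I subunits stood on both sides, with Ndufab1, Ndufa12, Ndufc2, Ndufs4 and Ndufs5 higher and Ndufa5 and Ndufs8 lower in share.

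In AT1 cells, thin cells that form the gas exchange surface, the genes furthest above AT2, of those that met the 20 CPM minimum, were Ndufaf1, Cox7a1, Ndufs4, Ndufaf4 and Uqcrc2. Ndufaf1, an assembly factor of complex I, was at 22.9 and 23.7 CPM against 8.15 and 8.46 in AT2 cells. Ndufs4, an accessory subunit whose loss impairs complex I, was at 152 and 146 CPM against 63.3 and 62.5. Uqcrc2, a core protein of complex III, was at 138 and 135 CPM against 61.5 and 61.2. Their shares of the 86 genes were 2.29 and 2.15 times those in AT2 cells for Ndufaf1, 1.96 and 1.79 for Ndufs4, and 1.83 and 1.69 for Uqcrc2. Atp5b, the catalytic beta subunit of the ATP synthase, was at 651 and 697 CPM against 300.1 and 314. Below that minimum, Ndufa4l2 was at 4.23 and 4.01 times and Atp5s at 2.32 and 3.25 times the AT2 level. The Ndufa4l2 values rest on 14 and 7 UMIs in AT1 cells. Its share of the pair with Ndufa4 was 1.46% and 0.363% there, below 3.36% and 0.565% in empty droplets. Cox7a2l lay below AT2, at 240 and 284 CPM against 349 and 351.

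In club cells 4 of the 74 genes tested had shares 1.5-fold apart from AT2 in both libraries, Uqcr10 and Atp5j higher and Cox6a2 and Cox6b2 lower. Of all genes tested, 7.2% were that much higher and 16.9% lower on this scale, so the count was not read as a trait of the group. Uqcr10, a small subunit of complex III (mm10 chr11:4701973-4704342), was at 404 (387 to 421) and 438 (397 to 483) CPM against 305 and 331 in AT2 cells, while the summed 86 genes were at 0.569 and 0.608 times the AT2 level. Its share of the 86 genes was 2.33 and 2.17 times that in AT2 cells. The share of Atp5j was 1.67 and 1.62 times that in AT2 cells. Ndufaf7, below the 20 CPM minimum, had a share of 2.39 and 1.73 times that in AT2 cells. The club genes that met the 2-fold rule downward were led by Cox6a2, Cox6b2, Cox7a2, Ndufb7 and Ndufa11; of these, Cox6a2 and Cox6b2 had shares more than 1.5-fold lower in both libraries. Uqcr10 was named after its values were seen.

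In endothelial cells Ndufs4 was at 145 and 209 CPM, Ndufa9, a complex I subunit, at 88.8 and 101 CPM and Atp5b at 636 and 647 CPM, against 63.3 and 62.5, 42.2 and 42.0, and 300.1 and 314 CPM in AT2 cells. The share of Atp5b in the 86 genes was 1.78 and 1.795 times that in AT2 cells. Ndufaf4, an assembly factor, differed between libraries, at 36.3 and 108 CPM. Atp5e, the epsilon subunit of the ATP synthase, lay lowest of complex V against AT2, at 365 and 357 CPM against 547 and 584. The direction of Atp5b and Ndufa9 turned when counted per cell, at -0.30 and -0.20 on the log2 scale.

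Genes outside the set that serve the same process were counted by the 2-fold rule, from lists also chosen with earlier results of these data known. Of complex II and cytochrome c, 0 of 5 were higher in AT1, 0 in club, 2 in ciliated and 2 in endothelial cells. Of assembly genes outside the Ndufaf family, 5 of 12 tested were higher in AT1, 6 of 15 in ciliated and 3 of 13 in endothelial cells. Of TCA cycle genes, 2 of 14, 4 of 15 and 0 of 14 were higher in those classes, and of glycolysis genes 4 of 11, 4 of 10 and 3 of 10. Of mitochondrial ribosome genes, 11 of 68, 21 of 69 and 13 of 67 were higher. In club cells 0 genes of any of these lists were higher. Of all genes tested, 36.9% were higher in AT1, 42.1% in ciliated, 37% in endothelial and 2.89% in club cells, and nothing particular to a list was read from its count. Genes lower were 1 glycolysis gene in each class, 5 mitochondrial ribosome genes in club and 1 each in ciliated and endothelial cells, and 1 each of complex II and cytochrome c and of the TCA cycle in club cells. Regulators of the program numbered 1 of 2 tested in AT1, 1 of 2 in ciliated and 0 of 4 in endothelial cells, too few to describe as a group. Cytosolic ribosome genes, of which 0, 1 and 0 of 80 were higher in AT1, ciliated and endothelial cells and 1, 9 and 1 lower, with 3 lower in club cells, had medians of -0.67 in AT1, -0.68 in club, -0.76 in ciliated and -0.23 in endothelial cells on the log2 scale. The other lists' medians in ciliated cells were 1.01 for complex II and cytochrome c, 0.62 for the TCA cycle, 0.99 for glycolysis and 0.76 for mitochondrial ribosome genes, beside 0.92 for all genes and 0.59 for the nuclear respiratory genes.

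Between the libraries no respiratory gene met the size rule in AT2 cells, here at least 20 CPM in either library, 1.5-fold apart, with separate intervals. Of 74 genes tested, 0 were 1.5-fold higher and 0 were 1.5-fold lower in the tumor-bearing library, beside 1.2% and 0.902% of all genes. Their median log2 ratio was -0.07, beside -0.05 for all genes, and ranged from -0.49 to 0.17. The summed level was 0.952 (0.9499 to 0.955) times the control, and 60 of 74 genes lay below 0, beside 63.2% of all genes; counted per cell the summed level was 1.23 times the control. By complex the ratio was 0.946 for complex I, 0.936 for complex III, 0.957 for complex IV and 0.962 for complex V. Mitochondrially encoded genes were at 0.894 times the control. Of the 74 genes at 20 CPM or more, lowest was Cox7a1, at 0.710 (0.659 to 0.765) times the control, then Cox5a at 0.865, Cox6a2 at 0.873, Ndufb2 at 0.873 and Ndufa5 at 0.874. Highest were Cox6b2 at 1.12, Atp5f1 at 1.12 and Atp5c1 at 1.10, then Ndufa10 and Uqcrfs1 at 1.03. Below that minimum, Cox4i2 was at 1.78 (1.61 to 1.98) and Ndufa4l2 at 3.25 (2.32 to 4.63) times the control, from 926 and 579 and from 137 and 47 UMIs. Both were also higher in the empty droplets of the tumor-bearing library. There Cox4i2 had 296 and 25 UMIs and Ndufa4l2 82 and 7, of 5359717 and 2321211 in all. The part of that RNA in the AT2 ratios was not tested.

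Outside AT2 at most 1 gene per direction met the 1.5-fold rule in a class. In AT1 cells Cox4i2 was higher, at 48.8 against 8.20 CPM (66 and 19 UMIs), and Cox6a2 lower, at 46.6 against 89.8 CPM beside Sftpc at 3.53% and 4.51% of UMIs, 1 gene of 80 in each direction beside 5.08% and 1.73% of all genes. The pericyte and smooth muscle markers stood at 27.4 and 3.45 CPM summed in the same AT1 cells. Empty droplets held 296 and 25 Cox4i2 UMIs of 5359717 and 2321211, a level above that of AT1 cells in each library. The part of pericyte or empty-droplet RNA in the Cox4i2 difference was not tested. In club cells 0 genes were higher and 1, Cox6a2, was lower, beside 0.655% and 7.93%; Sftpc was 1.82% and 2.90% of club UMIs. In ciliated cells, 1 gene of 78 was higher, Cox6b2 with 32 and 9 UMIs, and 1 lower, Atp5s with 13 and 36 UMIs, beside 1.74% and 1.79%. In endothelial cells Cox4i2 was higher and Ndufaf4 lower, 1 of 78 in each direction, from 162 and 5 and from 54 and 16 UMIs, beside 1.27% and 1.32%. Summed over the 86 genes, the ratio was 0.896 in AT1, 0.891 in club, 0.986 in ciliated and 0.987 in endothelial cells; counted per cell it lay above 1 in club (1.46), ciliated (1.16) and endothelial cells (1.17), and the club ratio was 1.01 and 1.04 with secretory genes left out of the total or centred on all genes.

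**Figure D5:**
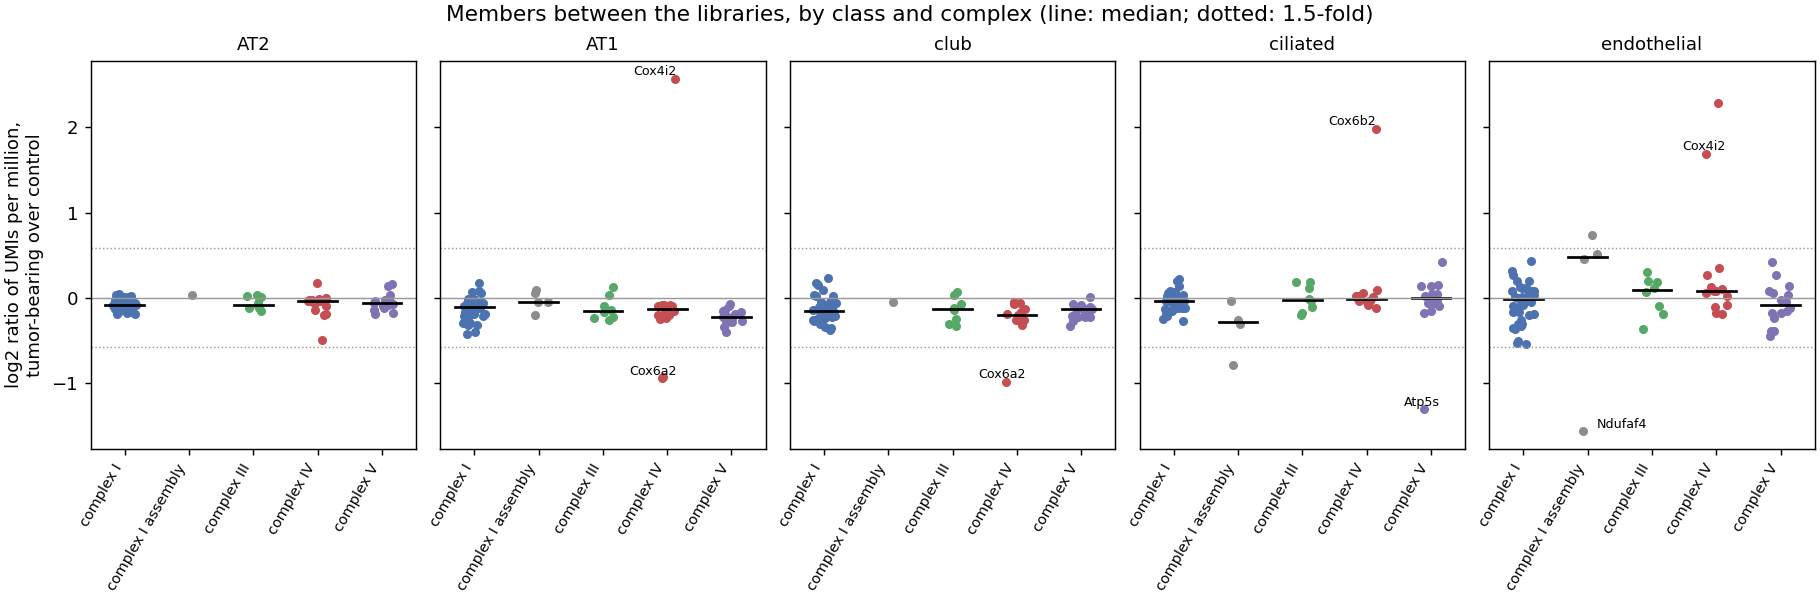
Log2 ratio of CPM, tumor-bearing over control (vertical axis), for each gene tested in 5 classes, grouped by complex; black lines are medians and dotted lines mark 1.5-fold. All 74 genes lie within the dotted lines in AT2 cells, and Cox4i2, Cox6a2, Cox6b2, Atp5s and Ndufaf4 are labelled where they met the rule in other classes.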

How the data were processed

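For each of the 2 libraries, the authors deposited a matrix of unnormalized UMI counts over 737280 barcodes. Cell Ranger 2.1.0 made it, per the labels' design text; the submitters' processing notes also name Seurat, R 3.5.3 and the genome mm10. Barcodes with at least 2000 UMIs, 500 genes and at most 20% mitochondrial UMIs were kept. Scrublet marked 0 and 1 cells by its own threshold, so the 533 and 966 highest scores were removed, which left 7632 and 10021 cells; mixed droplets can remain. Both libraries were clustered together (scanpy 1.11.5, leidenalg 0.10.2, 2000 variable genes without the 86 genes, resolution 0.5), and clusters were named from marker lists. No annotation by the authors was used, so classes may differ from theirs. Counts were summed per class and library and scaled to CPM; empty droplets were barcodes of 1 to 100 UMIs. Intervals are exact at 95% (Poisson for levels, Clopper-Pearson for shares, conditional binomial for folds). Simulated 3-fold higher genes were recovered in 100% (AT1, club, ciliated) and 99% (endothelial) of cases and 3-fold lower ones in 100%, 100%, 99% and 79%; 0 unaltered genes were called.

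The members, lists and rules were chosen with earlier results of these data known. Named genes are the isoform families, up to 5 genes per class and direction ordered by the smaller of the 2 library ratios, and the 5 highest and 5 lowest between libraries in AT2; genes named beyond that were chosen after their values were seen. Coordinates are from GENCODE vM21. The share of the 86 genes' UMIs, the heart muscle genes and 2 scalings (without secretory genes, and centred) were added after seeing the data. Alternatives covered the scaling total, UMI minimum, doublet and mitochondrial filters, AT2 definition, clustering resolution, marker gating, subtraction of empty droplets, CPM minimum and fold. The values of 1 gene that the counts include are not reported here.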

Additional observations from a re-analysis of the deposited data

How the results depend on the processing

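No paired analysis was possible because each group had 1 library. With Sftp and mitochondrially encoded genes left out of the total, the summed level against AT2 was 0.887 in AT1, 1.06 in ciliated, 0.404 in club and 0.795 in endothelial cells, against 1.27, 1.53, 0.588 and 1.17 as reported. With Scgb and Bpifa1 left out too, it was 0.884, 1.06, 1.05 and 0.793; per cell 1.14, 0.947, 1.26 and 0.454; and centred on the median of all genes 0.692, 0.798, 1.12 and 0.541. Under these 4 scalings in that order, genes higher numbered 0, 0, 3 and 0 in AT1 (10 reported), 2, 2, 2 and 1 in ciliated (11), 0, 1, 1 and 1 in club (0) and 0 each in endothelial cells (5). Genes lower numbered 3, 3, 6 and 7 in ciliated (1) and 60, 1, 1 and 1 in club cells (9). In AT1 2 were lower under each of the first pair and 5 centred (1), and in endothelial cells 35 per cell and 21 centred (2). Of all genes tested, 75.4% were lower in club cells under the first scaling. In endothelial cells 21.1% of all genes were lower per cell and 17% centred. The other counts under these 4 scalings lay below the share of all genes. At 1.5-fold, 29 were higher and 2 lower in AT1, 37 and 3 in ciliated, 55 lower in club and 12 higher in endothelial cells. The shares of all genes, in that order, were 58.1% and 8.31%, 58.3% and 10.3%, 61.3%, and 42.5%. Club genes lower were 23 with empty droplets subtracted, 5 without doublet removal and 2 by marker gate; endothelial genes lower were 1 with subtraction.

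The summed level in AT1 was 1.254 at 4000 UMIs, 1.31 with AT2 at 10% Sftpc, and 1.32 by marker gate and by subtraction. In ciliated cells it was 1.51 at 4000 UMIs, 1.48 without doublet removal and 1.58 by subtraction. In club cells it was 0.598 without doublet removal, 0.569 at Leiden resolution 1.0, 0.915 by marker gate and 0.540 by subtraction. Between libraries, the summed ratio per cell was 0.982 in AT1, 1.23 in AT2, 1.16 in ciliated, 1.46 in club and 1.17 in endothelial cells. In AT1 it was 0.883 without Sftp and mitochondrial genes and 0.878 by subtraction. In AT2 it was 0.946 by clusters, 0.955 by subtraction, 0.958 without secretory genes and 0.985 centred. In ciliated cells it was 1.002 at 4000 UMIs and 0.964 centred. In club cells it was 0.927 at resolution 1.0, 0.675 by marker gate, 0.914 by subtraction, 1.01 without secretory genes and 1.04 centred. In AT2, 2 genes, Cox4i2 and Ndufa4l2, were higher with no CPM minimum and 1 was lower at a smaller fold.

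Of 340 values of the 24 named pairs, 272 stayed on their side of the rule, 65 were no longer called and 3 turned: Atp5b in endothelial cells per cell (-0.30) and centred (-0.05), and Ndufa9 there per cell (-0.20). A scaling changes the totals by construction; otherwise the cause was not tested. Fewer than 50 cells in a library left endothelial cells without a value at minimums of 1000 and 4000 UMIs, and ciliated cells by marker gate. The 52 control endothelial cells limit every endothelial value.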
